A study of Mus musculus with 6 samples.

Results

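The tumour necrosis factor (TNF) superfamily was examined by RNA sequencing of CD4+ T cells from the spleen, the T cells that help B cells, macrophages and cytotoxic cells. Members were all genes whose symbol starts with Tnfsf or Tnfrsf, together with Tnf, Lta, Ltb, Ltbr, Fas, Fasl, Cd40, Cd40lg, Cd27 and Cd70, which gave 42 of the 22899 genes in each table. Of these 42 genes, 34 reached 1 FPKM in at least 3 of the 6 libraries and were tested, 7 stayed under 1 FPKM in all libraries and are given as not expressed, and 1 reached 1 FPKM in a single library. FPKM, the fragments of a gene scaled to transcript length and sequencing depth, allows levels of different genes to be compared per length.

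The obese group was 3 libraries from C57BL/6 mice on a high-fat diet with 60 kcal% fat, and the lean group was 3 libraries from C57BL/6 mice on a normal diet. Feeding generally began at 6 to 8 weeks of age and lasted for up to 4 months, and the cells of both groups were isolated by flow cytometric sorting. The labels leave unstated if the libraries are from different mice, so each p-value rests on the spread among libraries, which may be technical. No genotype or agent other than the diet is named for either group, and the composition of the normal diet is not given in the sources used here.

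Ligands of the superfamily are mostly membrane proteins that assemble as trimers and can be shed, and they signal to receptors with cysteine-rich extracellular domains. The receptors pass the signal through TRAF adaptors to NF-kB, or, where they carry a death domain, through FADD or TRADD to caspases. On helper T cells, CD40 ligand licenses B cells and dendritic cells, OX40, GITR, 4-1BB and CD27 act as co-stimulators, and Fas and its ligand remove activated cells. BAFF and APRIL, made largely by myeloid cells, sustain B cells and plasma cells.

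The libraries held transcripts of helper T cells and of other cells. The summed level of 10 helper T cell markers lay between 2400 and 2936 FPKM in obese and between 2748 and 3044 FPKM in lean libraries, with Cd4 at 279 to 325 FPKM in obese and 324 to 363 FPKM in lean libraries, and Cd3e at 346 to 455 FPKM in obese and 369.8 to 437 FPKM in lean libraries. Summed FPKM per library lay between 595106 and 630744 in the obese and between 616104 and 656303 in the lean group, and read depth is unknown. All 15 macrophage markers were higher in obese libraries, with sums of 1179 to 1472 FPKM in obese and 453 to 486 FPKM in lean libraries. Of 11 neutrophil markers, 6 were lower, with sums of 160 to 421 FPKM in obese and 550 to 791 FPKM in lean libraries. B cell marker sums overlapped, at 579, 626 and 1101 FPKM in obese and 449, 859 and 402 FPKM in lean libraries, and none of the 12 B cell markers was called. All 12 had a log2 difference above 0, against 70.8% of all tested genes. Of the 12, Bank1 alone was higher in each obese library, at 15.1 to 29.7 FPKM in obese and 9.03 to 13.05 FPKM in lean libraries. Erythroid sums were 29056, 4368 and 23549 FPKM in obese 1, 2 and 3, and 177 to 478 FPKM in lean libraries. The neutrophil genes S100a8 and S100a9 lay at 36.1 to 85.4 FPKM and 52.7 to 127 FPKM in obese libraries, and at 118 to 156 FPKM and 171 to 231 FPKM in lean libraries. The B cell receptor genes Cd79a and Cd79b lay at 218 to 405 FPKM and 137 to 242 FPKM in obese libraries, and at 150.03 to 365 FPKM and 99.1 to 210.4 FPKM in lean libraries. The globin genes Hba-a1 and Hba-a2 lay at 1153 to 7926 FPKM and 1410.5 to 8571 FPKM in obese libraries, and at 52.8 to 153 FPKM and 52.1 to 132 FPKM in lean libraries. Dendritic cell marker sums lay at 108 to 123 FPKM in obese and 126 to 133 FPKM in lean libraries with none called. Bst2 carried that difference, at 74.6 to 82.3 FPKM in obese and 89.0 to 99.1 FPKM in lean libraries. The sums of the other 9 dendritic cell markers overlapped, at 32.5 to 46.6 FPKM in obese and 33.8 to 37.3 FPKM in lean libraries, and Batf3 was higher in each obese library, at 3.27 to 5.41 FPKM in obese and 2.45 to 2.66 FPKM in lean libraries. Stromal and endothelial sums overlapped, with the collagen genes Col1a1 and Col1a2 under 1 FPKM throughout. In no marker list was any gene at 0 in all libraries. In bulk RNA, fewer cells of a type and less RNA per cell cannot be told apart.

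Obese and lean libraries were compared to ask which members differ with diet-induced obesity. Of the 34 tested members, 6 rose in obese libraries (Tnfsf13, Tnfrsf21, Ltbr, Tnfsf13b, Tnfrsf14 and Tnfrsf1b) and 2 fell (Tnfsf9 and Tnfsf14). A gene was called when its Benjamini-Hochberg (BH) adjusted p from limma, adjusted over all 10788 tested genes, was under 0.05. The 8 called members were 23.5% of those tested, against 6.28% of all tested genes. The higher calls were 17.6% of tested members against 5.77% of all genes, and the lower calls 5.88% against 0.519%. In the comparison by library, 11 tested members had every obese library above every lean one (32.4%, against 25.4% of all genes) and 2 had every obese library below (5.88%, against 6.15%). In either direction, 13 members (38.2%) had separate groups, against 31.5% of all genes. At an unadjusted p under 0.05, 14 members (41.2%) passed, against 25.9% of all genes, and 23 members (67.6%) had a difference above 0, against 70.8% of all genes. The share called was above the background, while the shares with separate groups or with a difference above 0 were near it. Tnfsf13b met the filter for testing through its 3 obese libraries, with 1 lean library at 1 FPKM or more, so its direction was favoured by the filter. Without it, 5 of 33 tested members were called higher (15.2%), while the share of all genes still holds genes that met the filter this way. With at least 1 FPKM required in all 6 libraries, 3 of 32 members were called higher, against 4.23% of 10158 genes. The median difference was 0.13 over the tested members and 0.10 over all tested genes, on the log2(FPKM + 1) scale used for all log2 differences here. The median of all genes moved to 0.01 after median-of-ratios scaling and to −0.03 after quantile normalization. With the median of all genes subtracted, the log2 differences were 1.07 for Tnfsf13, −1.17 for Tnfsf9 and −0.59 for Tnfsf14. Over all genes, 622 were called higher and 56 lower, against 443 and 114 after median-of-ratios scaling, 322 and 112 after quantile normalization, and 2507 and 609 with library weights.

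**Figure D1:**
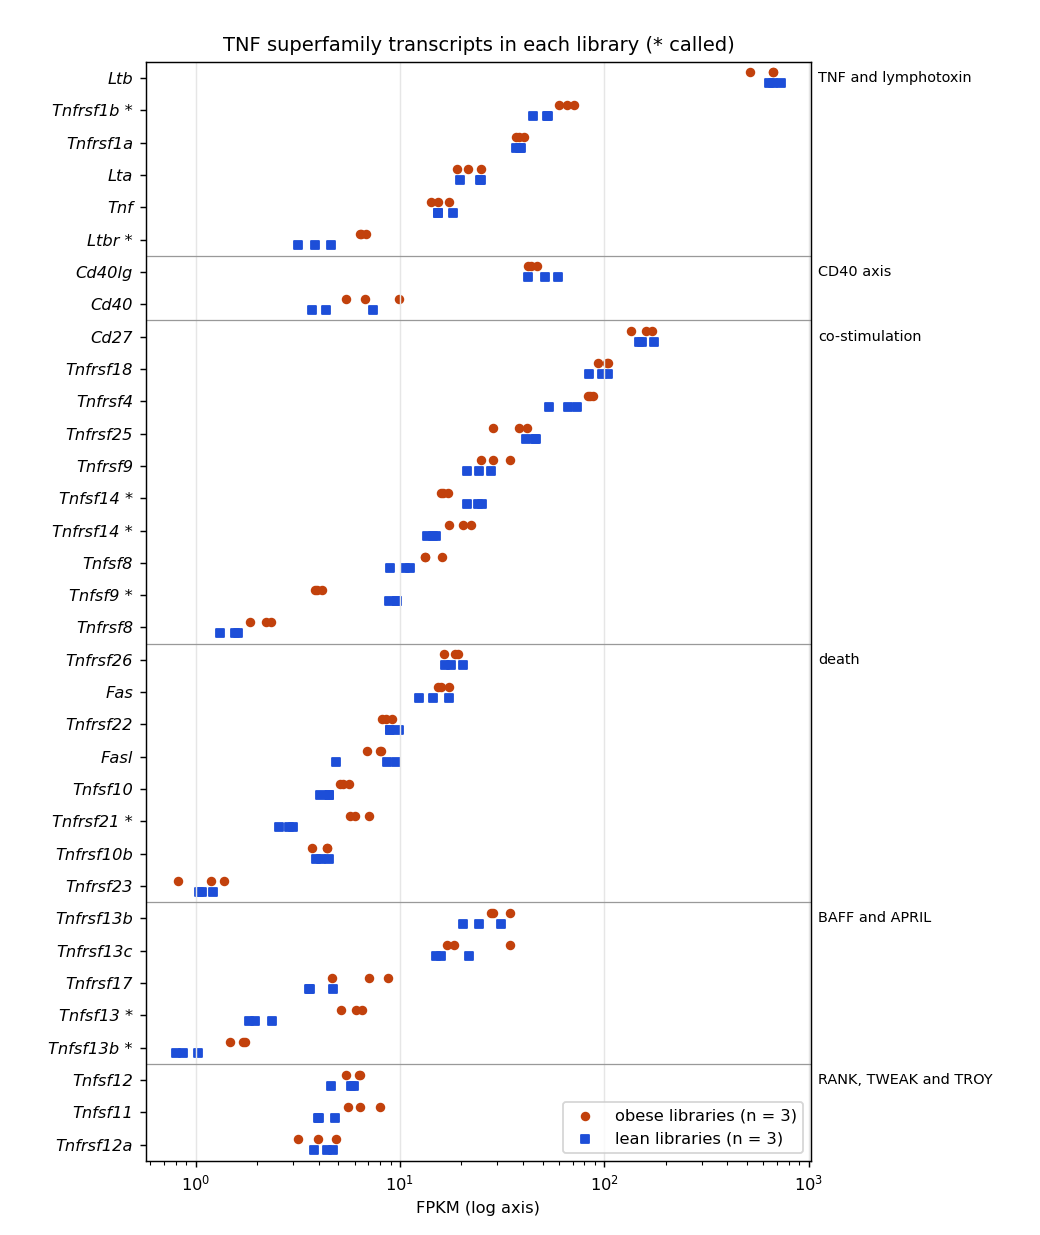
FPKM (log axis) of the 34 tested members, grouped by role, with 1 circle for each of 3 obese libraries and 1 square for each of 3 lean libraries, and an asterisk on called members. Ltb stands highest, between 515 and 733 FPKM, and Tnfsf9 shows the widest gap among members that fell, with obese libraries at 3.83 to 4.14 FPKM and lean ones at 8.88 to 9.71 FPKM.

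The 300 bases around the start sites of 3 of the 4 called ligands (250 before and 50 after, RefSeq, build GRCm38.p6) are shown because Tnfsf13, Tnfsf13b and Tnfsf14 each hold a TGANTCA motif, the letters bound by AP-1, in capitals below. AP-1 is a factor of lymphocyte activation. The promoter of Tnfsf9, the other called ligand, was not searched. Tnfsf13 lies at chr11:69685505-69685804 on the minus strand, Tnfsf14 at chr17:57194132-57194431 on the minus strand and Tnfsf13b, at the downstream of its listed starts, at chr8:10006383-10006682 on the plus strand.
Tnfsf13: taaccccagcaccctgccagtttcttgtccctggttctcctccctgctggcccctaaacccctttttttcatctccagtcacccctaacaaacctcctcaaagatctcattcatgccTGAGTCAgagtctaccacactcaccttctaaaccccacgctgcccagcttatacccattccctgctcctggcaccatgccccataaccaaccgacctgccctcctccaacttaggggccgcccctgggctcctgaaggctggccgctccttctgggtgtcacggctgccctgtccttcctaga
Tnfsf14: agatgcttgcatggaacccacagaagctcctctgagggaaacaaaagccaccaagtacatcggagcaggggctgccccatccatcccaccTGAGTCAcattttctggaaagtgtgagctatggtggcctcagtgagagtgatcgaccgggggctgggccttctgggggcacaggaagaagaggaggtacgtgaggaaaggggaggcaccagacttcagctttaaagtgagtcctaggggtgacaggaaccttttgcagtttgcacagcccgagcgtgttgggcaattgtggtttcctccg
Tnfsf13b: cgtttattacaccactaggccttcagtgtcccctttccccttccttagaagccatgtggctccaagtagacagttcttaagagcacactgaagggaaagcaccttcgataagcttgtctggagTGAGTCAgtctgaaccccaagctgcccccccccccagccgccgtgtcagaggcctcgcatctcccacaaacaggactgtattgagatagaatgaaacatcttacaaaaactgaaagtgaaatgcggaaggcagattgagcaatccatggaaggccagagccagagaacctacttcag

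The motif occupied positions −133 to −127 from the start site in Tnfsf13, −160 to −154 in Tnfsf14 and −127 to −121 in Tnfsf13b. Searched on both strands, it occurred in 6 of the 27 tested members with a listed promoter (also Fas, Tnfrsf8 and Tnfrsf9) in 5.95% of the 8761 tested genes with one, and in 7.81% of all 32851 listed promoters. These 3 ligands moved in different directions, since Tnfsf13 and Tnfsf13b rose and Tnfsf14 fell. A kappaB motif, GGGA followed by any 2 bases and TTCC, occurred in 1 of the 27 (Ltb), in 1.81% of tested genes and in 1.47% of all promoters. An ETS-type motif, GAGGAAGT, occurred in none of the 27, in 4.25% of tested genes and in 3.2% of all promoters. Neither overlapped the TGANTCA matches shown. The listed promoters of the called receptors Tnfrsf14, Tnfrsf21, Tnfrsf1b and Ltbr held none of these motifs. A match is a string of letters and was not tested for binding.

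Among TNF and the lymphotoxins, the ligands did not pass the test, and 2 of 3 receptors rose. Ltb, which encodes the membrane anchor of the lymphotoxin heterotrimer, had 672, 673 and 515 FPKM in obese and 670, 733 and 642 FPKM in lean libraries. Per length it was the most abundant member, above 98.9% of tested genes, and the next was Cd27. Obese 3 was the lowest library and the groups overlapped, with a log2 difference of −0.15 (95% CI −0.41 to 0.12; limma, BH-adjusted p = 0.456). Lta, the soluble lymphotoxin chain, had 21.6, 24.9 and 19.1 FPKM in obese and 24.8, 24.8 and 19.6 FPKM in lean libraries. Tnf, the inflammatory cytokine that names the family, had 17.4, 14.2 and 15.4 FPKM in obese and 18.2, 15.3 and 15.3 FPKM in lean libraries. Their groups overlapped, and the log2 differences were −0.08 (95% CI −0.36 to 0.21) and −0.05 (95% CI −0.29 to 0.19), neither past the threshold (limma, BH-adjusted p = 0.733 and 0.798).

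Ltbr (gene 17000), the lymphotoxin beta receptor of myeloid and stromal cells, had 6.37, 6.48 and 6.81 FPKM in obese and 4.61, 3.82 and 3.17 FPKM in lean libraries. All obese libraries lay above all lean ones, a 1.69-fold ratio of means and a log2 difference (± standard error, SE) of 0.64 ± 0.13 (limma, BH-adjusted p = 0.0214). Tnfrsf1b (gene 21938), TNF receptor 2, found on regulatory and effector T cells and on myeloid cells, had 60.3, 65.7 and 71.1 FPKM in obese and 53.1, 52.5 and 44.8 FPKM in lean libraries. The groups were separate, with a 1.31-fold ratio of means and a log2 difference (± SE) of 0.38 ± 0.09 (limma, BH-adjusted p = 0.0492). Tnfrsf1a, the death domain receptor for TNF, had 38.1, 40.4 and 36.9 FPKM in obese and 36.9, 39.1 and 38.6 FPKM in lean libraries. Its log2 difference was 0.01 (95% CI −0.16 to 0.17; limma, BH-adjusted p = 0.945), the narrowest interval among the tested members. Ltbr was called in 11 of 18 alternative fits and Tnfrsf1b in 4 of 18. Without obese 1, 2 or 3, or without lean 2, neither was called. Tnfrsf1b was called in none of the 6 leave-one-out fits (limma, BH-adjusted p of 0.0604 to 0.141, and up to 0.266 over all 18). After median-of-ratios scaling Ltbr was called and Tnfrsf1b was not.

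The CD40 pair did not pass the test. Cd40lg, the helper T cell signal to B cells, had 44.0, 47.0 and 42.5 FPKM in obese and 51.1, 42.2 and 59.2 FPKM in lean libraries, with a log2 difference of −0.18 (95% CI −0.44 to 0.09; limma, BH-adjusted p = 0.368). Cd40, its receptor on B cells and other antigen-presenting cells, had 5.44, 6.72 and 9.90 FPKM in obese and 3.72, 7.38 and 4.36 FPKM in lean libraries (log2 difference 0.45; limma, BH-adjusted p = 0.275). The highest Cd40 values in each group, in obese 3 and lean 2, were those of the libraries with the highest B cell marker sums, 1101 and 859 FPKM. The part of B cell content in the Cd40 level was not tested.

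Of the 10 tested members of the co-stimulatory group, 2 ligands fell and 1 receptor rose. Tnfsf9 (gene 21950) encodes 4-1BB ligand, a co-stimulator of T cells carried mainly by activated antigen-presenting cells. It had 3.83, 3.91 and 4.14 FPKM in obese and 8.88, 9.64 and 9.71 FPKM in lean libraries. Every obese library was below every lean one, the mean fell to 3.96 ± 0.161 FPKM in obese libraries, against 9.41 ± 0.46 FPKM in lean libraries (SD, n = 3 each), and the log2 difference was −1.07 ± 0.10 (SE; limma, BH-adjusted p = 5.53e-04). Tnfsf9 was called lower in all 18 alternative fits, with log2 differences between −1.28 and −1.02.

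Tnfsf14 (gene 50930) encodes LIGHT, a T cell ligand that binds both HVEM and the lymphotoxin beta receptor. It had 16.2, 15.8 and 17.3 FPKM in obese and 24.2, 21.4 and 25.1 FPKM in lean libraries. The groups did not overlap, and the log2 difference was −0.49 ± 0.09 (SE; limma, BH-adjusted p = 0.0160). It was called in 14 of 18 alternative fits, and was not called without obese 1, without obese 2, without lean 1, or once B cell marker level was added as a covariate (limma, BH-adjusted p up to 0.103). The marker sums of neutrophils and natural killer (NK) cells were also lower in obese libraries, with NK cell sums of 193 to 274 FPKM in obese and 275 to 378 FPKM in lean libraries. Of 9 NK cell markers, Ncr1, Klra8 and Klra4 were called lower, while Eomes was above the lean libraries in each obese one, at 12.2, 12.0 and 14.1 FPKM in obese and 11.7, 9.60 and 10.9 FPKM in lean libraries. Of the neutrophil markers, Csf3r and Cxcr2 overlapped between groups, with log2 differences of 0.17 and 0.10. No marker of either list was at 0 in all libraries. As a share of the NK cell marker sum, Tnfsf9 was 1.43% to 1.99% in obese and 2.35% to 3.51% in lean libraries. Relative to the neutrophil sum Tnfsf9 overlapped between groups, and Tnfsf14 overlapped relative to either sum. Relative to the helper T cell, regulatory T cell and macrophage marker sums, both genes lay lower in each obese library. For Tnfsf14 the share of the helper T cell sum was 0.539% to 0.719% in obese and 0.730% to 0.913% in lean libraries. Of the B cell sum, Tnfsf9 was 0.376% to 0.662% in obese and 1.12% to 2.41% in lean libraries, while Tnfsf14 overlapped. The part of neutrophils and NK cells in the lower levels of Tnfsf9 and Tnfsf14 was not tested.

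Tnfrsf14 (gene 230979), the receptor HVEM, had 20.3, 17.3 and 22.2 FPKM in obese and 14.95, 14.6 and 13.5 FPKM in lean libraries. The groups were separate, with a 1.39-fold ratio of means and a log2 difference (± SE) of 0.44 ± 0.11 (limma, BH-adjusted p = 0.0448). It was called in 6 of 18 alternative fits (limma, BH-adjusted p 0.0216 to 0.253). Of the 6 leave-one-out fits it was called in that without obese 2 alone, and it was not called after median-of-ratios scaling.

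The other receptors of this group were not called. Tnfrsf4 (OX40) had 83.3, 85.1 and 88.3 FPKM in obese and 73.7, 66.2 and 53.6 FPKM in lean libraries, so its groups were separate, but its log2 difference of 0.41 missed the threshold (95% CI 0.16 to 0.67; limma, BH-adjusted p = 0.0635). It was called in 3 of 18 alternative fits. These were library weights, the fit without lean 1 (limma, BH-adjusted p = 0.0495) and scaling each library to the same sum (limma, BH-adjusted p = 0.0324). Tnfrsf18 (GITR), which lies beside Tnfrsf4 and marks regulatory T cells together with it, had 104, 104 and 93.7 FPKM in obese and 104, 97.5 and 84.2 FPKM in lean libraries (log2 difference 0.08; limma, BH-adjusted p = 0.614). Tnfrsf9 (4-1BB), the receptor for Tnfsf9, had 25.0, 28.5 and 34.7 FPKM in obese and 27.9, 24.3 and 21.4 FPKM in lean libraries (log2 difference 0.25; limma, BH-adjusted p = 0.275). The marker sum of regulatory T cells lay at 241 to 271 FPKM in obese and 190 to 226 FPKM in lean libraries. Of its 8 markers none was called, and Capg, Ctla4 and Ikzf2 had all obese libraries above all lean ones. Capg, the most abundant of them, lay at 113 to 137 FPKM in obese and 82.9 to 108 FPKM in lean libraries. Foxp3, which defines the lineage, overlapped between groups, at 51.9, 54.7 and 54.3 FPKM in obese and 53.2, 50.8 and 41.4 FPKM in lean libraries. As a share of the regulatory T cell marker sum, Tnfrsf1b was 25.1% to 26.3% in obese and 23.5% to 24.3% in lean libraries. Without Capg in that sum, the Tnfrsf1b shares overlapped between groups. The part of regulatory T cell content in the levels of Tnfrsf4, Tnfrsf9 and Tnfrsf1b was not tested.

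Cd27, the co-stimulator kept by naive and central memory T cells, had 161, 171 and 135 FPKM in obese and 175, 147 and 153 FPKM in lean libraries (log2 difference −0.03; limma, BH-adjusted p = 0.890). Tnfrsf25, the death domain receptor DR3, had 42.1, 38.3 and 28.4 FPKM in obese and 45.6, 46.3 and 41.4 FPKM in lean libraries. At −0.30 it had the most negative log2 difference among members that were not called (95% CI −0.61 to 0.003; limma, BH-adjusted p = 0.197). Tnfsf8 (CD30 ligand) had 13.3, 13.3 and 16.1 FPKM in obese and 10.6, 8.89 and 11.2 FPKM in lean libraries, and its receptor Tnfrsf8 (CD30) had 1.84, 2.21 and 2.33 FPKM in obese and 1.32, 1.62 and 1.56 FPKM in lean libraries. Both had separate groups and neither passed, with log2 differences of 0.44 and 0.32 (limma, BH-adjusted p = 0.0624 and 0.132). The group's other ligands, Cd70, Tnfsf4 (OX40 ligand), Tnfsf15 (TL1A) and Tnfsf18 (GITR ligand), stayed under 1 FPKM in all 6 libraries and are given as not expressed. Thus Tnfrsf4, Tnfrsf18, Cd27 and Tnfrsf25 were among the most abundant members while their ligands were not expressed in these libraries. The highest value of the 4 ligands was 0.53 FPKM, for Tnfsf4 in obese 2.

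**Figure D2:**
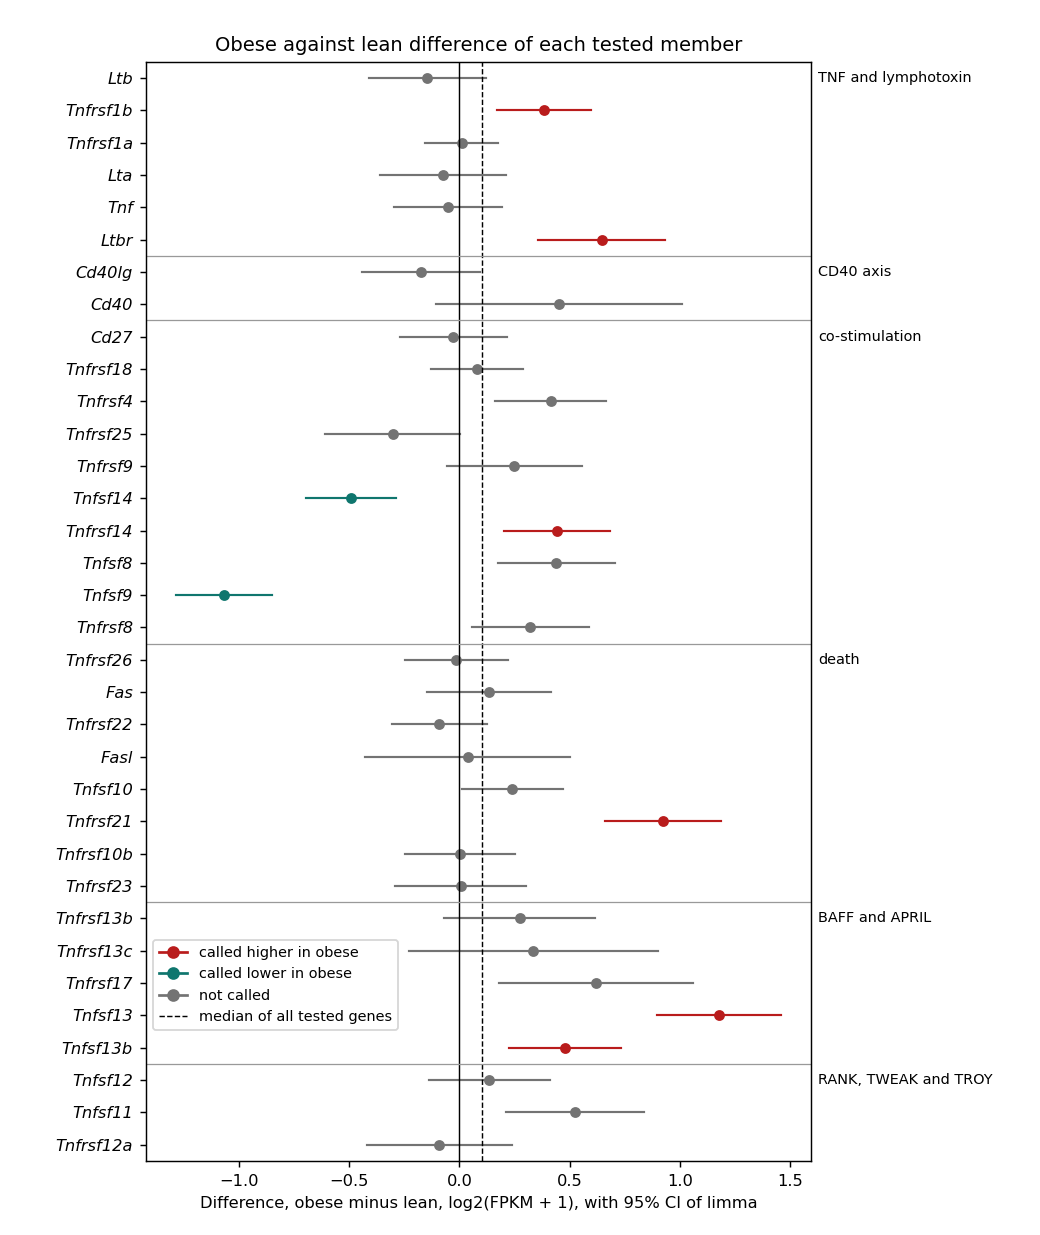
Difference of obese minus lean libraries on the log2(FPKM + 1) scale for the 34 tested members, by role, as points with the 95% CI of limma (n = 3 each). The 6 members called higher and the 2 called lower are coloured, the solid line marks 0 and the dashed line the median of all tested genes, 0.10.

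Among death receptors and their ligands, 1 of 8 tested members rose. Tnfrsf21 (gene 94185), the death domain receptor DR6, had 5.67, 6.00 and 7.09 FPKM in obese and 2.87, 2.56 and 3.01 FPKM in lean libraries. Every obese library was above every lean one, with a 2.22-fold ratio of means and a log2 difference (± SE) of 0.92 ± 0.12 (limma, BH-adjusted p = 0.00262). It was called in all 18 alternative fits, with log2 differences between 0.68 and 1.12. The other death domain receptors, Tnfrsf1a, Fas, Tnfrsf10b and Tnfrsf25, were not called.

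Fas had 17.3, 15.8 and 15.3 FPKM in obese and 14.5, 12.3 and 17.4 FPKM in lean libraries, and Fasl had 8.07, 8.03 and 6.89 FPKM in obese and 8.69, 4.86 and 9.52 FPKM in lean libraries. Both overlapped between groups, with log2 differences of 0.13 and 0.04 (limma, BH-adjusted p = 0.520 and 0.925). Lean 2 held the lowest value of both genes. Tnfsf10 (TRAIL) had 5.08, 5.24 and 5.65 FPKM in obese and 4.51, 4.05 and 4.51 FPKM in lean libraries, which did not overlap and did not pass (log2 difference 0.24; limma, BH-adjusted p = 0.178). Its death receptor Tnfrsf10b lay between 3.71 and 4.48 FPKM over the 6 libraries (log2 difference 0.001; 95% CI −0.25 to 0.25; limma, BH-adjusted p = 0.995).

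Tnfrsf22 and Tnfrsf23, decoy receptors for TRAIL in mice, and Tnfrsf26, a related receptor, are neighbours on chromosome 7 and similar in sequence, so reads may be shared between them. They lay at 8.20 to 9.14, 0.82 to 1.38 and 16.3 to 19.3 FPKM in obese libraries, and at 8.92 to 9.94, 1.04 to 1.22 and 16.7 to 20.3 FPKM in lean libraries. None passed, with log2 differences of −0.09, 0.01 and −0.01 (limma, BH-adjusted p = 0.565, 0.982 and 0.941).

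In the BAFF and APRIL group both ligands rose, and the 3 receptors did not pass. Tnfsf13 (gene 69583) encodes APRIL, a survival factor of plasma cells. It had 6.50, 5.13 and 6.07 FPKM in obese and 1.95, 2.37 and 1.83 FPKM in lean libraries. The lowest obese library was more than 2 times the highest lean one, the ratio of means was 2.88, and the log2 difference (± SE) of 1.18 ± 0.12 was the largest among members (limma, BH-adjusted p = 0.00103). It was called in all 18 alternative fits, with log2 differences between 0.92 and 1.48.

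Tnfsf13 lies inside the read-through gene Tnfsfm13 and next to Tnfsf12, so the split of reads between the 3 is uncertain. Tnfsfm13 (chr11:69682577-69696098) spans Tnfsf12 (chr11:69686240-69696098) and Tnfsf13 (chr11:69682577-69685554). It had 0.56, 0.73 and 0.54 FPKM in obese and 1.07, 0.63 and 0.71 FPKM in lean libraries, and reached 1 FPKM in lean 1 alone. Tnfsf12 (TWEAK), a ligand of tissue repair, had 5.46, 6.40 and 6.32 FPKM in obese and 5.98, 5.74 and 4.61 FPKM in lean libraries (log2 difference 0.14; limma, BH-adjusted p = 0.502). The summed level of the 3 genes was 12.5, 12.3 and 12.9 FPKM in obese and 9.0, 8.74 and 7.15 FPKM in lean libraries. The sum was higher in each obese library (exact permutation test, 2-sided, p = 0.1, the smallest that 3 against 3 libraries allow). Tnfsf13 made up 51.9%, 41.8% and 46.9% of that sum in obese and 21.7%, 27.1% and 25.6% in lean libraries.

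Tnfsf13b (gene 24099), which encodes BAFF, the survival factor of mature B cells, had 1.75, 1.48 and 1.70 FPKM in obese and 0.80, 0.87 and 1.03 FPKM in lean libraries. The groups did not overlap, with a 1.83-fold ratio of means and a log2 difference (± SE) of 0.48 ± 0.11 (limma, BH-adjusted p = 0.0426). It was tested because all 3 obese libraries reached 1 FPKM, which 1 lean library did, so the filter favoured a higher call. At such levels the log2(FPKM + 1) scale understates the change. It was called in 7 of the 17 alternative fits that tested it (limma, BH-adjusted p 0.00401 to 0.222), of which that without lean 3 was the sole leave-one-out fit, and it was not called after median-of-ratios scaling.

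The receptors Tnfrsf13b (TACI) and Tnfrsf13c (BAFF receptor) of B cells overlapped between groups. Tnfrsf13b had 28.6, 28.0 and 34.7 FPKM in obese and 24.4, 31.2 and 20.3 FPKM in lean libraries (log2 difference 0.27; limma, BH-adjusted p = 0.282). Tnfrsf13c had 16.95, 18.4 and 34.5 FPKM in obese and 15.01, 21.7 and 15.9 FPKM in lean libraries (log2 difference 0.33; limma, BH-adjusted p = 0.416). Both were highest in obese 3 and, within the lean group, in lean 2, the libraries with the highest B cell marker sums, 1101 and 859 FPKM. Tnfrsf17 (BCMA), the plasma cell receptor of APRIL, had 4.66, 7.02 and 8.70 FPKM in obese and 3.64, 4.72 and 3.57 FPKM in lean libraries, and at 0.62 had the largest log2 difference among members that were not called (limma, BH-adjusted p = 0.0929). It was called in 2 of 18 alternative fits, with library weights and without obese 1 (in the latter, log2 difference 0.83; limma, BH-adjusted p = 0.0270). Plasma cell marker sums were 874, 953 and 1542 FPKM in obese and 566, 662 and 603 FPKM in lean libraries, with 1 of 7 markers called, Jchain, while Sdc1 was not, and none at 0 in all libraries. The part of B cell and plasma cell content in these receptor levels was not tested.

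Of RANK ligand, TWEAK and their receptors, none of the 3 tested members passed. Tnfsf11, RANK ligand, a product of activated T cells that drives osteoclasts, had 6.35, 5.54 and 7.95 FPKM in obese and 4.80, 4.02 and 3.96 FPKM in lean libraries. Its groups did not overlap, and with a log2 difference of 0.52 it came closest to the threshold among members that were not called (95% CI 0.21 to 0.84; limma, BH-adjusted p = 0.0601). Its receptor Tnfrsf11a (RANK), its decoy Tnfrsf11b (osteoprotegerin) and Tnfrsf19 (TROY) stayed under 1 FPKM in all libraries. Tnfrsf11a was at 0.51, 0.61 and 0.62 FPKM in obese and 0.09, 0.20 and 0.29 FPKM in lean libraries, values under the level used for testing. Tnfrsf12a (Fn14), the TWEAK receptor, had 4.87, 3.99 and 3.16 FPKM in obese and 4.39, 4.68 and 3.81 FPKM in lean libraries (log2 difference −0.09; limma, BH-adjusted p = 0.719).

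Several called members are also expressed by macrophages, whose markers were higher in each obese library. C1qa and C1qb, of complement, lay at 141 to 192 FPKM and 140 to 186 FPKM in obese libraries, and at 56.0 to 61.3 FPKM and 58.1 to 60.4 FPKM in lean libraries. As a share of the summed macrophage markers, Tnfsf13 was 0.442%, 0.404% and 0.515% in obese and 0.425%, 0.523% and 0.376% in lean libraries, so its level per macrophage marker overlapped between groups. Tnfrsf21 was 0.385%, 0.473% and 0.602% of that sum in obese and 0.625%, 0.565% and 0.619% in lean libraries, which also overlapped. The other 4 members that rose made up a smaller share of the macrophage marker sum in every obese library than in any lean one. For Ltbr the share was 0.433% to 0.578% in obese and 0.652% to 1.004% in lean libraries, for Tnfsf13b 0.117% to 0.144% and 0.174% to 0.212%, for Tnfrsf14 1.36% to 1.89% and 2.78% to 3.26%, and for Tnfrsf1b 4.09% to 6.03% and 9.22% to 11.6%. Relative to the helper T cell marker sum, all 6 lay higher in each obese library. Relative to the B cell marker sum, Tnfsf13 lay higher in each obese library and the rest overlapped between groups. The part of macrophage content in these rises was not tested.

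**Figure D3:**
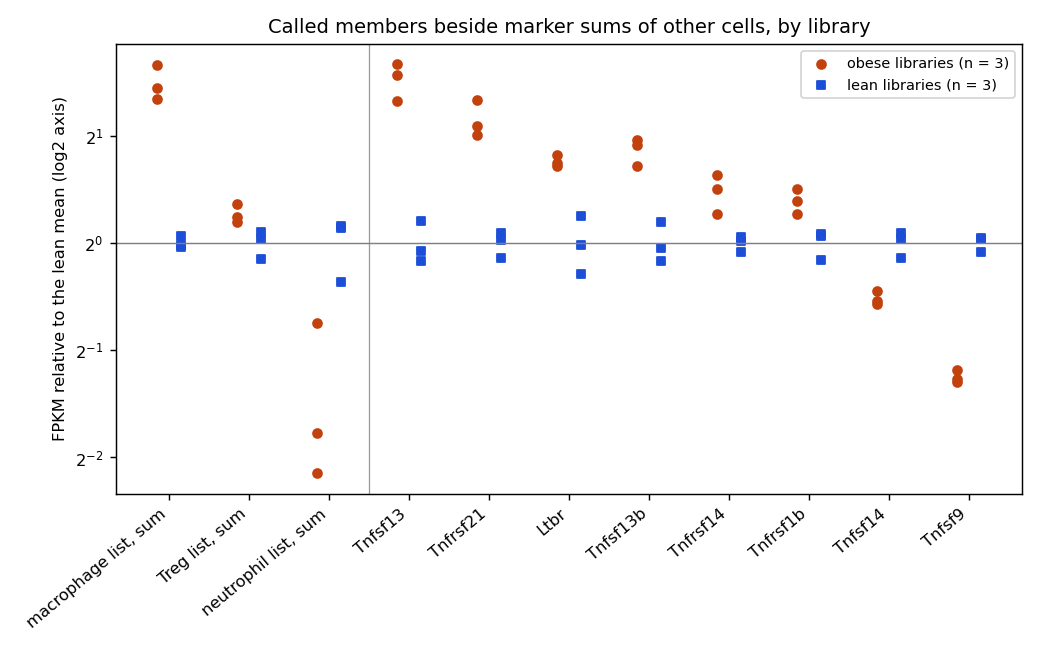
FPKM of the 8 called members, and summed FPKM of the macrophage, regulatory T cell (Treg) and neutrophil marker lists, each divided by its lean mean (log2 axis), with 1 circle per obese and 1 square per lean library (n = 3 each). The macrophage sum and Tnfsf13 reach the highest values in obese libraries, and Tnfsf9 and the neutrophil sum lie below the lean libraries.

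The ratio of a ligand to its receptor within a library is unchanged when all genes of that library are scaled by the same factor. Quantile normalization can change it. Of 18 ligand and receptor pairs with both genes tested, 6 had a lower ratio in every obese library, 3 a higher ratio and 9 overlapped. For each of the 9 separate pairs the exact permutation test, 2-sided, gave p = 0.1, the smallest possible with 3 against 3 libraries, and a BH-adjusted p = 0.2 over the 18 pairs, so none passed. Several pairs share a gene and are not independent. Each separate pair except Tnfsf10 with Tnfrsf10b holds a called member, so its ratio in part restates that call. Of single tested genes 31.5% had separate groups, and no such share was computed for pairs.

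The ratio of Tnfsf9 to Tnfrsf9 was 0.153, 0.137 and 0.119 in obese and 0.319, 0.397 and 0.454 in lean libraries, a mean log2 difference of −1.51. Tnfsf14 stood below Tnfrsf14 in each obese library, with ratios of 0.797, 0.915 and 0.777, and above it in each lean library, with ratios of 1.62, 1.47 and 1.85. Against Ltbr, the ratio of Tnfsf14 was 2.55, 2.44 and 2.54 in obese and 5.25, 5.59 and 7.91 in lean libraries. The ratio of Ltb to Ltbr was 106, 104 and 75.6 in obese and 145, 192 and 203 in lean libraries, while Ltb itself overlapped between groups. Tnf and Lta relative to Tnfrsf1b were lower in each obese library, with mean log2 differences of −0.44 and −0.47, and relative to Tnfrsf1a both overlapped.

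Higher ratios were found for Tnfsf13 to Tnfrsf13b, at 0.228, 0.183 and 0.175 in obese and 0.0801, 0.0759 and 0.0901 in lean libraries, for Tnfsf13 to Tnfrsf17, and for Tnfsf10 to Tnfrsf10b. Fasl to Fas, Tnfsf8 to Tnfrsf8, Cd40lg to Cd40 and Tnfsf12 to Tnfrsf12a overlapped between groups, as did the 3 ratios of Tnfsf13b to its receptors.

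**Figure D4:**
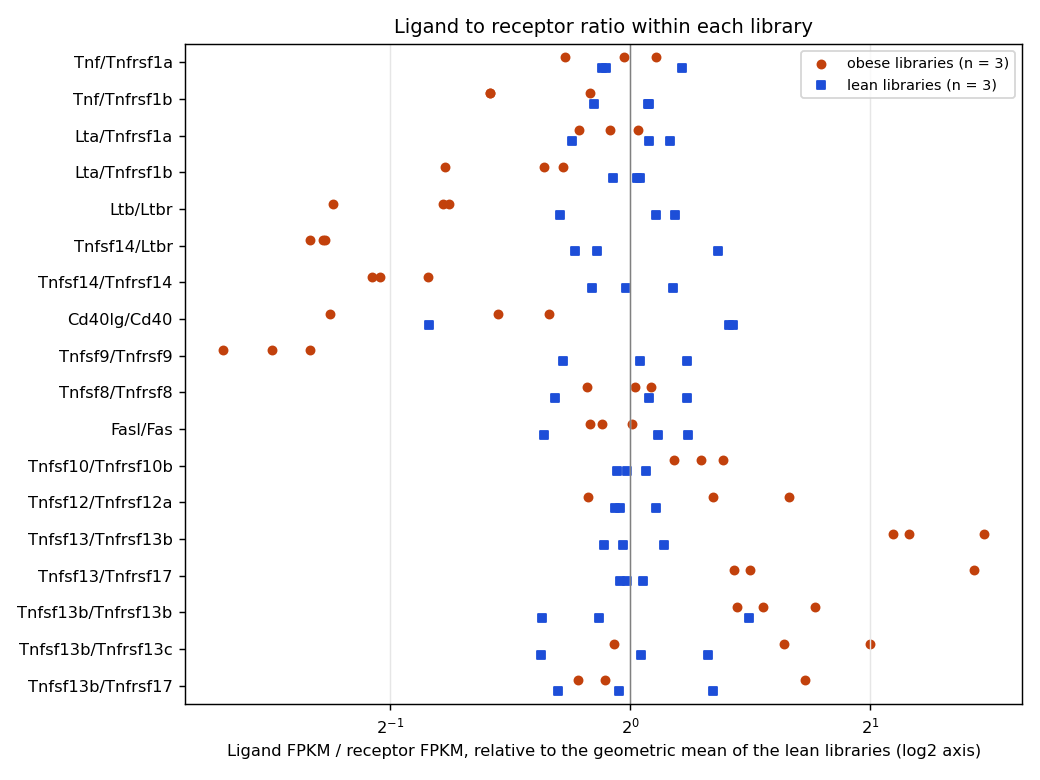
Ratio of ligand FPKM to receptor FPKM for 18 pairs, divided by the geometric mean of the lean libraries (log2 axis), with 1 circle per obese and 1 square per lean library (n = 3 each). Tnfsf9/Tnfrsf9 lies farthest to the left in obese libraries, and Tnfsf13/Tnfrsf13b lies to the right of all lean libraries.

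Many members lie side by side in the genome. With neighbours no more than 100 kb apart (RefSeq, GRCm38.p6), 23 of the 42 members fell into 9 clusters. Both members that fell, Tnfsf9 (chr17:57105287-57107758) and Tnfsf14 (chr17:57189474-57194181), belong to 1 cluster of 3 genes, in which Cd70 (chr17:57145997-57149777) lies between them and was not expressed. Ltb, Tnf and Lta, within the MHC on the same chromosome, form another cluster, and none of them was called. On chromosome 6, Ltbr (chr6:125306571-125313885) rose while its neighbours Cd27 and Tnfrsf1a had log2 differences of −0.03 and 0.01. On chromosome 4, Tnfrsf1b rose beside Tnfrsf8, which did not pass.

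Among genes downstream of the receptors, 1 of 42 tested was called, against 6.28% of all tested genes. Of 23 adaptors and components of receptor complexes, 1 fell and none rose, against 0.519% of all genes called lower and 5.77% called higher. It was Traf4 (gene 22032), a member of the TRAF adaptor family, with 17.3, 17.3 and 20.3 FPKM in obese and 23.9, 30.0 and 35.4 FPKM in lean libraries (log2 difference −0.66 ± 0.14, SE; limma, BH-adjusted p = 0.0275). It was not called without obese 1, obese 2 or lean 2 (limma, BH-adjusted p = 0.0761, 0.0712 and 0.0949). Birc3 and Birc2, ubiquitin ligases bound to TRAF2, had separate groups and log2 differences of 0.39 and 0.45 (limma, BH-adjusted p = 0.0588 and 0.0847). Of 15 NF-kB subunits, kinases and inhibitors, none passed. Chuk, an IkB kinase subunit, and Nfkb2, the precursor of p52, had log2 differences of 0.53 and 0.24 (limma, BH-adjusted p = 0.0943 and 0.105). Of 4 genes of ligand and receptor shedding, none passed, and Adam10 and Rhbdf1 had log2 differences of 0.52 and 0.35 (limma, BH-adjusted p = 0.0913 and 0.130). Rhbdf1 had 1.21, 1.02 and 1.47 FPKM in obese and 0.60, 0.84 and 0.82 FPKM in lean libraries, so it was tested through the obese libraries alone and its direction was favoured by the filter. At an unadjusted p under 0.05, 6 adaptors, 4 NF-kB genes and, of the shedding genes, Adam10 and Rhbdf1 lay higher, against 21.9% of all tested genes, and Rhbdf1 lends no support for the reason given. The 3 lists had median log2 differences of 0.11, 0.10 and 0.27, the last with Rhbdf1 included, against 0.10 over all tested genes.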

How the data were processed

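RNA of splenic CD4+ T cells was sequenced by Illumina HiSeq in 3 obese and 3 lean libraries, per the labels' protocols. FPKM values of 2 decimals were deposited by the authors, in 1 table per library. Bowtie, RSEM and the builds GRCm38 and mm10 are named, with no role or order, per the submitters' processing notes. The gene annotation, and whether counting used strand, are not given in the sources consulted. Low values were searched for whole-read steps and none were found, so depth is unknown, no intervals from counting were made and precision rests on the spread between libraries.

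After a log2(FPKM + 1) transform, 10788 genes that reached 1 FPKM in 3 or more libraries were fitted with limma 3.58.1 in R 4.3.3 (eBayes with intensity trend, group as sole term, 2-sided). Coordinates and promoters came from RefSeq (GRCm38.p6), matched by gene number for all 42 members. The fit was checked on simulated data. Members, role groups, pathway and marker lists and the ligand and receptor pairs were chosen with earlier results of these data known. All members with at least 1 FPKM in a library were named. Of each pathway list the called genes, or the 2 with the smallest p, were named, and of each marker list the sum. Single marker genes were chosen for their place in the list or after their values were seen. The pathway genes Birc2 and Birc3 were named outside that rule, after their values were seen. Alternatives were other pseudocounts, filters, scalings and variance models, library weights, a replicate block, a B cell marker covariate and each library left out, with the tested genes held fixed except for the filters.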

Additional observations from a re-analysis of the deposited data

How the results depend on the processing

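Tnfsf13, Tnfrsf21 and Tnfsf9 were called in the same direction in all 18 alternatives, and no called member changed sign in any. Against 6 members higher and 2 lower, 3 were higher with no filter, with at least 1 FPKM in all 6 libraries and after median-of-ratios scaling, 2 after quantile normalization, 12 with library weights, and 2 higher and 1 lower with the B cell marker covariate. Tnfsf13b and Tnfrsf23 were not tested with at least 1 FPKM in all 6 libraries. Leaving out each library gave 2 to 4 higher and 1 to 2 lower. Over all genes, against 622 higher and 56 lower, no filter gave 344 and 24, quantile normalization 322 and 112, library weights 2507 and 609, the covariate 243 and 23, and median-of-ratios scaling 114 lower. Leaving out each library gave 299 to 601 higher and 19 to 97 lower. The share of higher calls was 91.7%, but 79.5% after median-of-ratios scaling, 74.2% after quantile normalization and 80.5% with library weights. Pathway genes, 0 higher and 1 lower, became 13 higher with library weights, 1 higher and 0 lower with TPM scaling, and 0 lower with no filter or the covariate; leaving out each library gave 0 to 1 higher and 0 to 1 lower. The cause of these changes was not tested.

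With the replicate number as a block, 4 pathway genes were higher, 4 members higher and 2 lower, and 149 genes lower. Same-numbered libraries correlated at 0.03, 0.06 and 0.19 in their deviations from the group means, and obese 1 correlated best with lean 2, so the numbers were not taken to pair the libraries. Unknown depth limits the members near 1 FPKM most, Tnfsf13b, Tnfrsf23 and Tnfrsf8.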

Other observations

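Set against the marker sums of the cells that usually carry them, Cd40, Tnfrsf13c and Tnfrsf17 overlapped between groups. Cd40 was 0.940%, 1.07% and 0.899% of the summed B cell markers in obese and 0.828%, 0.859% and 1.08% in lean libraries. Tnfrsf13c was 2.93%, 2.93% and 3.13% in obese and 3.34%, 2.53% and 3.95% in lean libraries. Tnfrsf17 was 0.533%, 0.736% and 0.564% of the plasma cell marker sum in obese and 0.643%, 0.713% and 0.592% in lean libraries. Jchain carried much of that sum, which without it lay at 283 to 471 FPKM in obese and 217 to 291 FPKM in lean libraries. Against the sum without Jchain, the Tnfrsf17 share was higher in each obese library, by a margin within the rounding of the FPKM values. Cd40lg was 1.57%, 1.60% and 1.77% of the helper T cell marker sum in obese and 1.68%, 1.44% and 2.15% in lean libraries. Tnfrsf18 was 43.1%, 41.6% and 34.6% of the regulatory T cell marker sum in obese and 45.9%, 45.1% and 44.4% in lean libraries. That order rested on Capg, which carried much of the sum. Without Capg the sum lay at 127 to 134 FPKM in obese and 107 to 124 FPKM in lean libraries. Against that smaller sum, the Tnfrsf18 shares overlapped between groups. Tnfrsf4 was 34.6%, 34.1% and 32.6% of the full sum in obese and 32.6%, 30.6% and 28.3% in lean libraries, so the lowest obese and highest lean shares were level. Against the sum without Capg, the Tnfrsf4 share was higher in each obese library. These shares are descriptions without a test.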
